A study of Mus musculus with 6 samples.

Results

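The dihydropyridine receptor, the voltage-gated L-type calcium channel of skeletal muscle, was examined together with its adaptor STAC3 in C2C12 cells with and without *Phf2*. The 8 genes were *Cacna1s*, *Cacna1c*, *Cacna2d1*, *Cacnb1*, *Cacnb3*, *Cacng1*, *Cacng6* and *Stac3*, taken by symbol from the 55401 genes of the count matrix, in which each stood on 1 row. C2C12 cells are mouse myoblasts that form multinucleated myotubes once serum is lowered, and the RNA-seq libraries were made from polyadenylated RNA at 2 d post differentiation. There were 3 control libraries, labelled wild type, and 3 libraries labelled Phf2 KO. Per the methods, the controls were mock cells that had received a plasmid with Cas9, ZsGreen and a guide without a match in the mouse genome, and the KO cells had received 4 pooled plasmids with guides against *Phf2*. Both groups were transfected, sorted for ZsGreen, expanded, frozen and then differentiated in DMEM with horse serum. Each group was an uncloned pool of sorted cells and the libraries were wells of a single experiment, so p-values measure the spread between wells, and a difference between the pools cannot be told apart from an effect of *Phf2*.

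The skeletal dihydropyridine receptor sits in the T-tubule membrane and senses its depolarization. Its pore and voltage sensor, CaV1.1 (*Cacna1s*), is coupled to the ryanodine receptor RyR1 of the sarcoplasmic reticulum, so that a change of voltage releases stored calcium and starts contraction. The beta-1 subunit (*Cacnb1*) brings the channel to the membrane and is needed for its ordered arrangement opposite RyR1, while the alpha-2/delta-1 (*Cacna2d1*) and gamma-1 (*Cacng1*) subunits modulate the current. STAC3 is a muscle adaptor protein that binds CaV1.1 and is needed for its trafficking and for excitation-contraction coupling. CaV1.2 (*Cacna1c*) is the pore of the cardiac and smooth muscle channel, the beta-3 subunit (*Cacnb3*) serves channels of many tissues, and gamma-6 (*Cacng6*) is a relative of gamma-1 that is also found in striated muscle.

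The libraries held between 52526109 and 67502788 estimated counts. A count stands for about 75 covered bases, so the values are not numbers of reads. *Phf2* itself (ENSMUSG00000038025, chromosome 13, 48801750 to 48871119) was at 102, 95.5 and 105 CPM in the control libraries and at 41.1, 37.6 and 38.6 CPM in the KO libraries, where CPM is the count scaled to a common library size with TMM factors. The labels and the RNA level of the targeted gene thus go together, with 38.8% of the control RNA level remaining. RNA is not protein, and the paper reports a stronger loss of PHF2 protein in the KO myoblasts. The labels give the cells as C2C12 myotubes. The means of the 12 markers of differentiated C2C12 cells that were looked up lay between 48.2 CPM (*Mymx*) and 2540 CPM (*Myh3*) in control cells.

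Of the 8 genes, 7 passed the filter and 5 of these were lower in KO cells with an adjusted p under 0.05 (edgeR's quasi-likelihood test, Benjamini-Hochberg over 17310 genes). *Cacng6*, *Cacna1s*, *Stac3*, *Cacng1* and *Cacnb1* fell, in the order of their log2 fold changes of -1.13, -0.74, -0.49, -0.41 and -0.38. *Cacna2d1* and *Cacnb3* did not pass the threshold, and *Cacna1c* was too low to be tested. Among all genes tested, 3.26% were called lower and 3.22% higher. The 8 genes and the lists below were chosen with earlier results of these data known. These counts therefore describe the list and are not a test of it. The median log2 fold change was -0.41 for the 7 genes and -0.001 for all genes tested. No member was called higher by the quasi-likelihood test, by exactTest (3.10% of all genes higher) or by DESeq2 (5.04%). At an unadjusted p under 0.05 there was 1, *Cacnb3*, whose p ranked 2601 among the 17310 genes. How many of all genes pass at an unadjusted p under 0.05 was not counted, here and below. In bulk RNA, fewer differentiated cells and less of these RNAs per cell cannot be told apart. The summed level of the 12 myotube markers was between 9106 and 10746 CPM in control libraries and between 7268 and 8137 CPM in KO libraries. It moved with the 5 genes, and its part in their fall was not tested. In CPM, all KO libraries were below all control libraries for the 5 genes that fell and above them for *Cacnb3*. This held for 12.2% and 12.9% of all genes tested. When control replicate 1 was dropped, 3 members were called lower and 2.41% of all genes were. The same number of members was called when control replicate 2 (1.47% of all genes), KO replicate 2 (1.78%) or KO replicate 3 (1.82%) was dropped. In TPM, the length-scaled level given for single libraries, limma called 2 members lower with a pseudocount of 1 (0.508% of all genes) and with 0.1 (0.578%). A fit with replicate blocks called 5 members lower (3.86% of all genes).

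**Figure D1:**
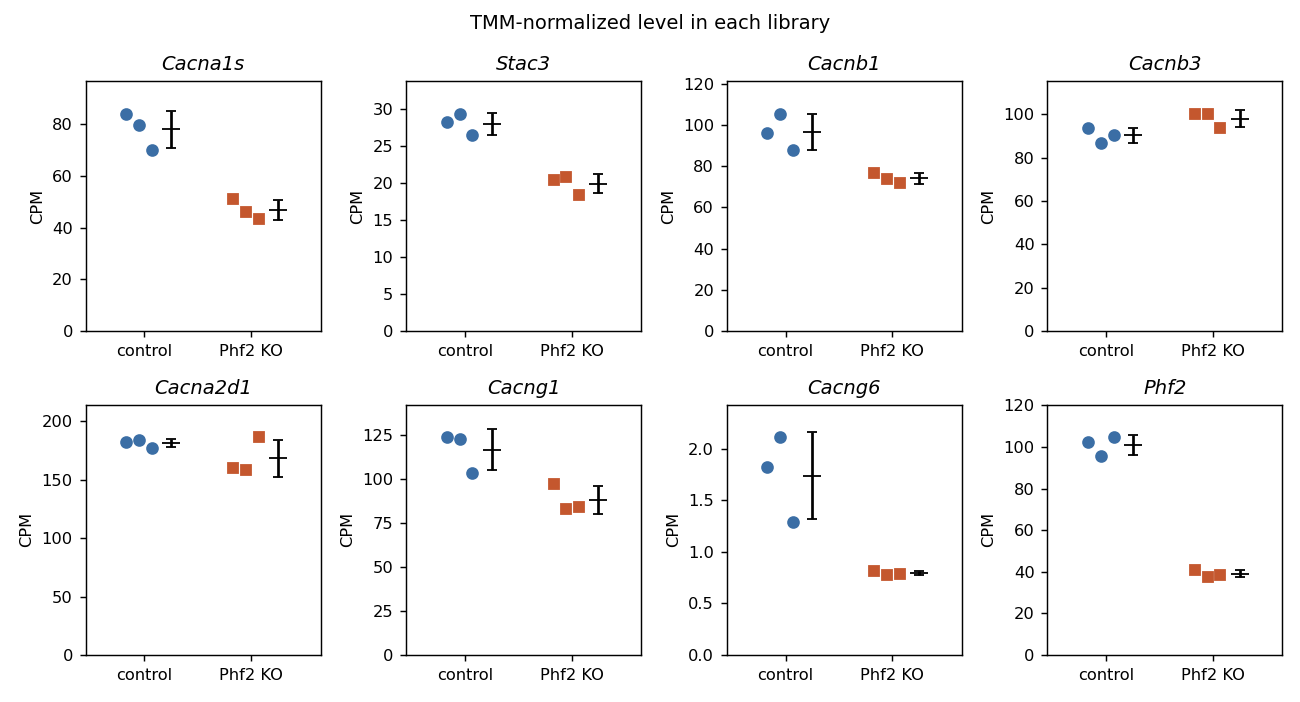
TMM-normalized level in CPM (vertical axes, from 0) of the 7 tested genes and of *Phf2* in each control library (circles) and Phf2 KO library (squares); the black bars show mean and SD of 3 libraries. The KO libraries lie below every control library for *Cacna1s*, *Stac3*, *Cacnb1*, *Cacng1* and *Cacng6*, and the groups overlap for *Cacna2d1*.

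*Cacna1s* (ENSMUSG00000026407, mm10 chromosome 1, 136052750 to 136119822, plus strand) showed the smallest p of the 7 genes. Per GENCODE M21, its longest coding transcript has 44 exons and 1852 codons. The level was 84.0, 79.8 and 70.1 CPM in control replicates 1, 2 and 3 and 50.9, 45.9 and 43.4 CPM in KO replicates 1, 2 and 3. Every KO library was below every control library, with a gap between 50.9 and 70.1 CPM. The control mean was 78.0 ± 7.14 CPM and the KO mean was 46.8 ± 3.83 CPM (SD, n = 3 each), which is 59.96% of the former. On the log2 scale the change was -0.74, with a standard error of 0.075 and a 95% interval of -0.90 to -0.57 (adjusted p = 0.000128, quasi-likelihood test). It passed the threshold in each fit that left out a library, with the largest adjusted p at 0.00269, and in the limma fit of log2(TPM + 1), with 0.0254. The annotation places the short gene *Gm37759* on the opposite strand over the 3' end of *Cacna1s*. It had at most 57 estimated counts in a library, 2.36% of the lowest *Cacna1s* count, and whether the counting used the strand is not given in the sources used here.

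The sequence around the start of *Cacna1s* is shown because this is the member with the firmest fall. It covers 250 bases before and 50 bases after the RefSeq start, and is printed in the direction of transcription from the RefSeq table for GRCm38.p6, the assembly of mm10. In these windows capitals mark the E-box CANNTG, which is bound by MyoD and myogenin, and the MCAT element CATTCC, which is bound by TEAD factors, each searched on both strands.
*Cacna1s*, chr1:136052561-136052860, plus strand: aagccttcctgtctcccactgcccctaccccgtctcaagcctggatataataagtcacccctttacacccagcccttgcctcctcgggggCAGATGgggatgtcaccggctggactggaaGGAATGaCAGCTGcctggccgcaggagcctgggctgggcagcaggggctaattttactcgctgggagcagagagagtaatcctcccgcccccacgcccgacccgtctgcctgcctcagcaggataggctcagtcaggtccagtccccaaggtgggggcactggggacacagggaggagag
It held 2 E-boxes, with first bases at -160 and -123 from the start. The second is CAGCTG, and an MCAT element on the minus strand begins at -130, directly upstream of it with a single base between them. Of the 32851 windows of this length in the table, 72.3% held an E-box, 16.3% held CAGCTG and 14.7% held CATTCC. Neither the MEF2 nor the CArG consensus was found in the window, and 3.19% and 1.63% of all windows held them. The assembled loci of the 6 libraries began at a median of 61.5 bases from this start. These matches describe the sequence, and binding was not measured.

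*Cacna1c* (ENSMUSG00000051331, chromosome 6, 118587240 to 119196890, minus strand), the cardiac counterpart, was at the limit of detection. Its estimated counts were 3, 3 and 0 in the control libraries and 0, 2 and 0 in the KO libraries. No library was above the 3 counts taken as the floor, so no fold is given and the ratio of *Cacna1s* to *Cacna1c* was not computed. A difference between the groups was not detectable at this depth. On the opposite strand, *Dcp1b* overlaps its 5' end and had between 120 and 205 counts. The 3 windows of *Cacna1c* held 3, 2 and 1 E-boxes and no MCAT element, and the first held CAGCTG at 28. E-boxes and CAGCTG were thus also present at a member at the limit of detection.

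*Stac3* (ENSMUSG00000040287, chromosome 10, 127501686 to 127508823, plus strand) encodes a protein of 360 codons in 12 exons in its longest annotated coding transcript. Its level was 28.2, 29.4 and 26.5 CPM in control replicates 1, 2 and 3 and 20.4, 20.9 and 18.5 CPM in KO replicates 1, 2 and 3. The groups did not overlap. KO cells held 19.9 ± 1.29 CPM against 28.0 ± 1.47 CPM in control cells (SD, n = 3 each), or 71.1%. This is a log2 change of -0.49 with a standard error of 0.079 and a 95% interval of -0.66 to -0.32 (adjusted p = 0.00200). The adaptor thus fell together with the channel pore that it binds, and its call was kept in each fit without a library, with the largest adjusted p at 0.0196. The RefSeq table of start sites held no window for *Stac3* or *Cacng1*.

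Of the beta subunits, *Cacnb1* fell and *Cacnb3* did not pass the threshold. *Cacnb1* (ENSMUSG00000020882, chromosome 11, 98001508 to 98023034, minus strand), the beta-1 subunit of the skeletal receptor, was at 96.2, 105 and 87.9 CPM in the control libraries and at 76.7, 73.6 and 71.7 CPM in the KO libraries. No KO library reached a control library. The mean fell from 96.5 ± 8.73 to 74.0 ± 2.55 CPM (SD, n = 3 each), a log2 change of -0.38 with a 95% interval of -0.52 to -0.25 and a standard error of 0.061 (adjusted p = 0.00201). It remained past the threshold without any 1 library (largest adjusted p = 0.0226) but not when limma was run on TPM, where adjusted p was 0.114 with a pseudocount of 1 and 0.111 with 0.1.

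*Cacnb3* (ENSMUSG00000003352, chromosome 15, 98630840 to 98644529, plus strand) was at 93.44, 86.7 and 90.5 CPM in the control libraries and at 100.2, 100.03 and 93.50 CPM in the KO libraries. Control replicate 1 and KO replicate 3 were nearly level. The log2 change of 0.12, with a standard error of 0.048 and a 95% interval of 0.01 to 0.22, did not pass the threshold (unadjusted p = 0.0288, adjusted p = 0.191). The sign turned in the limma fit of log2(TPM + 1), where the log2 change was -0.088 (adjusted p = 0.704). A direction for *Cacnb3* is thus not given by these data. Its window, shown beside that of *Cacna1s* as that of a member without a call, held 1 E-box and no MCAT element, MEF2 or CArG consensus.
*Cacnb3*, chr15:98632078-98632377, plus strand: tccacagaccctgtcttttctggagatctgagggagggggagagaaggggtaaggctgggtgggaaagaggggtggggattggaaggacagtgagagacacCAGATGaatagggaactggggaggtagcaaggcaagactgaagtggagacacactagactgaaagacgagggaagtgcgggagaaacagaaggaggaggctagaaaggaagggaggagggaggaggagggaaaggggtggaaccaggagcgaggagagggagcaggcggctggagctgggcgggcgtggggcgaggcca
The E-box CAGATG begins at -149. The table held a second *Cacnb3* start, and the assembled loci began at a median of 48.0 bases from the first and 2416 bases from the second. For *Cacnb1*, the window nearest to the assembled loci (chr11:98022578-98022877) held none of the 4 motifs and had 73.7% G and C, against a median of 52.7% over all windows. Its second window, at a median of 4462 bases from the assembled loci, held 1 E-box, at -27.

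*Cacna2d1* (ENSMUSG00000040118, chromosome 5, 15934691 to 16374511, plus strand), the alpha-2/delta-1 subunit, was at 183, 184 and 178 CPM in the control libraries. In KO replicates 1 and 2 it was lower, at 160 and 159 CPM, but in KO replicate 3 it was the highest of all 6 libraries, at 186 CPM. The log2 change was -0.11 with a standard error of 0.059 (adjusted p = 0.352), and its 95% interval of -0.23 to 0.02 corresponds to a KO level of 0.850 to 1.01 times the control level. Without KO replicate 3 the log2 fold change was -0.19 (adjusted p = 0.0569). The window at its start had 80.0% G and C and none of the 4 motifs.

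Both gamma subunits fell, from levels far apart. *Cacng1* (ENSMUSG00000020722, chromosome 11, 107703218 to 107716522, minus strand), with 1 annotated transcript of 4 exons and 223 codons, was at 124, 123 and 103 CPM in the control libraries and at 97.4, 83.0 and 83.9 CPM in the KO libraries. Control replicate 3 and KO replicate 1 stood near each other without overlap. The mean fell from 116.7 ± 11.6 to 88.1 ± 8.06 CPM (SD, n = 3 each), a log2 change of -0.41 with a standard error of 0.084 and a 95% interval of -0.60 to -0.21 (adjusted p = 0.0237). The call was lost when control replicate 1 (adjusted p = 0.0682) or 2 (0.0896) or KO replicate 2 (0.0858) or 3 (0.107) was dropped, and in the limma fit of log2(TPM + 1) (0.0930). Its neighbours of the same family were nearly silent, since *Cacng4*, 15834 bases away, did not exceed 0.395 CPM and *Cacng5* had 0 counts in all 6 libraries. A level below detection is not excluded for *Cacng5*.

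*Cacng6* (ENSMUSG00000078815, chromosome 7, 3424195 to 3435667, plus strand) was the lowest of the tested members and had the largest fold change. It had 104, 123 and 75 estimated counts in the control libraries and 50, 41 and 53 in the KO libraries, or 1.82, 2.11 and 1.29 CPM against 0.813, 0.781 and 0.783 CPM. On TPM the groups overlapped, at 1.98, 3.20 and 1.41 in the control libraries and 0.871, 1.53 and 0.870 in the KO libraries. In CPM they did not, and the control libraries were the more spread. The mean fell to 45.5% of the control level (log2 change -1.13 with a standard error of 0.29, 95% interval -1.76 to -0.50, adjusted p = 0.0336). The call was lost in each fit that left out a library other than control replicate 3, where adjusted p was 0.102 and 0.174 when control replicates 1 and 2 were dropped and 0.0782, 0.0990 and 0.102 when KO replicates 1, 2 and 3 were, and it was 0.325 with limma on log2(TPM + 1). Beside it, *Cacng8* had at most 7 counts and *Cacng7* at most 54.
*Cacng6*, chr7:3424412-3424711, plus strand: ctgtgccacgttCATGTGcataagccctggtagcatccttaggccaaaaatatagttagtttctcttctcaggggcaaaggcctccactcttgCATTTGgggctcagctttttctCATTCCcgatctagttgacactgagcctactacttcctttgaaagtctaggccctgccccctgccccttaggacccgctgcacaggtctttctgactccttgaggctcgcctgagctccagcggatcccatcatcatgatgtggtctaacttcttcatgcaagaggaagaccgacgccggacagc
This window, shown because the fall was largest here, held 2 E-boxes, at -238 and -157, and an MCAT element at -135, but not CAGCTG. The assembled loci began at a median of 467 bases from this start, so the window is not certain to be the start in use.

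**Figure D2:**
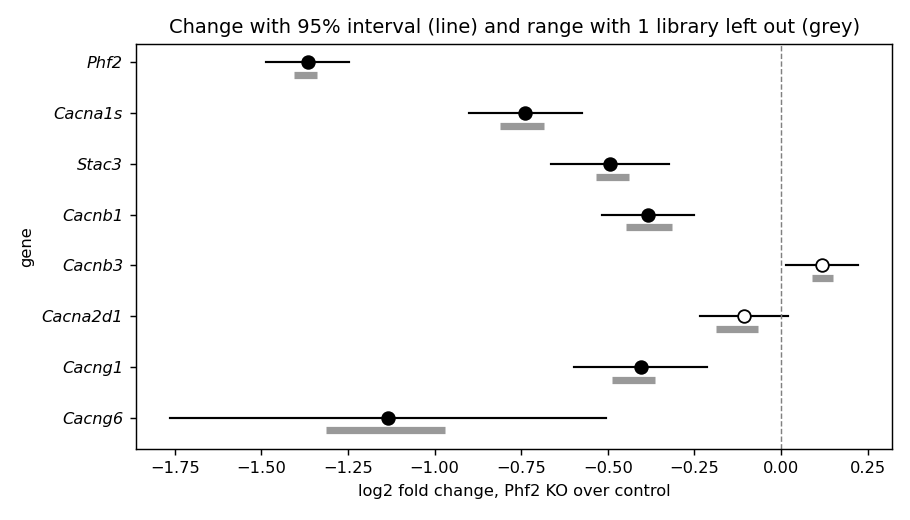
Log2 fold change of KO over control (horizontal axis) for *Phf2* and the 7 tested genes; black lines are 95% intervals of the quasi-likelihood fit, filled circles have an adjusted p under 0.05, and grey bars span 6 fits, each without a different library. The grey bars of *Cacna1s*, from -0.81 to -0.68, and of *Cacng6*, from -1.31 to -0.97, stay left of 0.

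The levels of the genes were compared with each other on TPM, which is scaled by transcript length. In control cells *Cacng1* was highest, at 201.5 ± 18.9 TPM (SD, n = 3), or 7.30 times the mean of *Cacna1s*. *Cacnb1* followed with 78.7 ± 7.46 TPM, *Cacnb3* with 68.0 ± 5.51 TPM and *Cacna2d1* with 61.3 ± 1.58 TPM. *Stac3* at 28.2 ± 1.12 TPM and *Cacna1s* at 27.6 ± 2.30 TPM were neighbours whose ranges overlapped. *Cacng6* was at 2.19 ± 0.916 TPM, and *Cacna1c* was below 0.003 TPM in every library. On these reference rows the transcript of the pore was thus less abundant than those of the alpha-2/delta-1, beta and gamma-1 subunits, and close to that of its adaptor. On the TPM of assembled loci, *Stac3* was above *Cacna1s* in control cells, at 38.2, 41.0 and 35.7 against 31.8, 29.1 and 27.4 TPM. In KO cells *Cacng1* was again highest, at 153 ± 11.7 TPM. The ranges of *Cacnb3* (64.0 ± 5.89 TPM), *Cacnb1* (60.8 ± 4.87 TPM) and *Cacna2d1* (57.1 ± 7.65 TPM) then overlapped between neighbours, and *Stac3* at 19.99 ± 0.820 TPM was above *Cacna1s* at 16.8 ± 1.04 TPM without overlap. The sum of the 8 genes was 480, 486 and 437 TPM in the control libraries and 384, 358 and 377 TPM in the KO libraries.

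**Figure D3:**
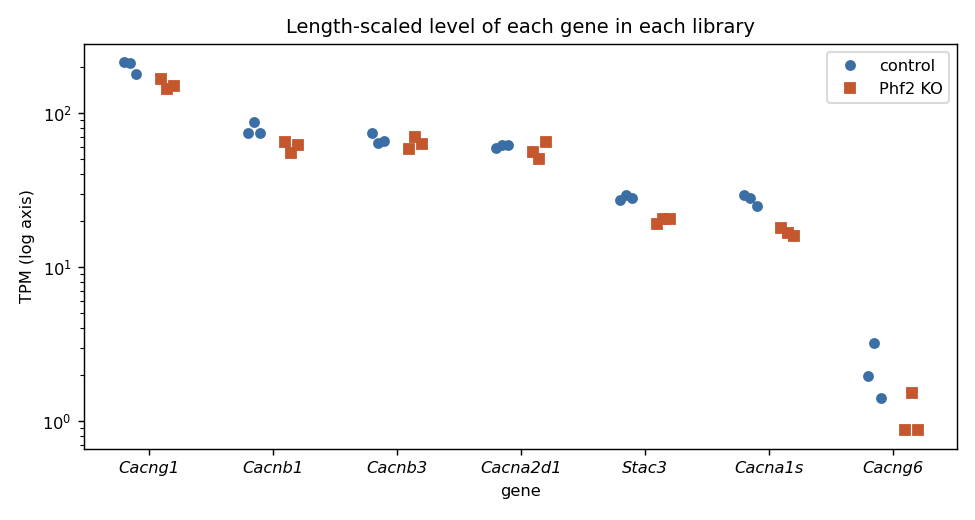
TPM of the reference rows (vertical log axis) of 7 genes in each control library (circles) and KO library (squares), ordered by the control mean. *Cacna1c*, below 0.003 TPM, is not drawn. *Cacng1* lies above all others in both groups, the ranges of *Stac3* and *Cacna1s* overlap in control cells, and *Cacng6* lies lowest of the 7.

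Whether the subunits changed in proportion was examined on ratios within a library. The groups were set against each other with an exact permutation test (two-sided; 3 against 3 libraries can give no p below 0.1), and p was adjusted over 3 ratios. The TPM ratio of *Stac3* to *Cacna1s* was 0.921, 1.04 and 1.12 in the control libraries and 1.06, 1.24 and 1.28 in the KO libraries, so that the groups overlapped (exact p = 0.2, adjusted p = 0.3). Within same-numbered libraries, whose deviations correlated, its log2 value was higher in KO cells by 0.20, 0.25 and 0.20 (exact paired p = 0.25, the smallest that 3 pairs allow). The methods do not state that same-numbered wells were matched, and this pairing was taken from the data. The ratio of *Cacnb1* to *Cacnb3* was 1.00, 1.37 and 1.13 in control cells and 1.10, 0.785 and 0.995 in KO cells (exact p = 0.2, adjusted p = 0.3). The ratio of *Cacna1s* to *Ryr1*, the calcium release channel that it contacts, was 0.694, 0.902 and 0.685 in control cells and 0.755, 0.673 and 0.601 in KO cells (exact p = 0.4, adjusted p = 0.4). On the TPM of the reference rows the groups overlapped for each of the 3 ratios. On the TPM of assembled loci, an alternative chosen after seeing the data, the ratio of *Stac3* to *Cacna1s* was 1.201, 1.41 and 1.31 in control cells and 1.49, 1.79 and 1.74 in KO cells without overlap (exact p = 0.1, adjusted p = 0.3), and the groups overlapped for the other ratios. On TMM-normalized CPM they did not overlap for any of them, and the log2 ratio differed by 0.24 for *Stac3* to *Cacna1s*, -0.50 for *Cacnb1* to *Cacnb3* and -0.18 for *Cacna1s* to *Ryr1* (exact p = 0.1 and adjusted p = 0.1 for each, the smallest that the design allows).

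The other subunits of voltage-gated calcium channels and the other STAC genes were mostly silent. Of 21 such genes, 9 passed the filter, 1 of them was called higher and none lower (0 also by exactTest, DESeq2 and at an unadjusted p under 0.05). The shares over all genes tested were 3.22% higher and 3.26% lower. The median log2 fold change of the 9 was 0.28. *Stac2*, which encodes a relative of STAC3, was the highest of them, with 32.4 TPM in control cells and 30.6 TPM in KO cells, similar to *Stac3* in control cells. Its level was 43.9, 48.0 and 45.6 CPM in the control libraries and 44.4, 43.9 and 40.6 CPM in the KO libraries, with a log2 fold change of -0.09 (95% interval -0.23 to 0.04, adjusted p = 0.453). The groups overlapped. On TPM *Cacnb2* followed, at 1.19 ± 0.889 TPM in control and 2.91 ± 1.41 TPM in KO cells, and then *Cacng7*, at 0.482 ± 0.130 and 0.936 ± 0.473 TPM (SD, n = 3 each). In CPM *Cacnb2* was at 5.90 ± 1.048 and 6.30 ± 0.495 (adjusted p = 0.823) and *Cacng7* at 0.553 ± 0.148 and 0.670 ± 0.221 (adjusted p = 0.808), where *Cacna1a*, at 2.15 and 2.93 CPM (adjusted p = 0.352), stood above *Cacng7*. *Cacna1b*, the pore of the neuronal N-type channel, was the gene called higher. It was at 0.333, 0.464 and 0.670 CPM in the control libraries and at 1.14, 1.75 and 1.21 CPM in the KO libraries (log2 change 1.48 with a standard error of 0.37, adjusted p = 0.0290). At this low level the call was lost when control replicate 1 (0.1004) or 2 (0.111) or KO replicate 2 (0.138) or 3 (0.0740) was dropped, and with limma on log2(TPM + 1) (0.909).

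Partners and regulators of the receptor were described through a list of 30 genes of the triad, the T-tubule and channel regulation. Of the 29 tested, 11 were called lower and 1 higher, against 3.26% and 3.22% of all genes tested. The other 17 did not pass the threshold, with log2 fold changes from -0.62 (*Atp2a1*) to 0.29 (*Mtm1*). Among these 17, *Trdn*, *Asph*, *Speg* and *Fkbp1a* lay between -0.04 and 0.05. The median log2 fold change of the 29 was -0.15. *Cav3*, the caveolin of muscle that is linked to T-tubule formation, changed most, from 11.9 ± 1.87 to 4.53 ± 0.882 CPM (SD, n = 3 each; log2 fold change -1.39, adjusted p = 0.000181). The calcium release channels *Ryr3* and *Ryr1* had log2 fold changes of -0.70 (adjusted p = 0.000743) and -0.56 (adjusted p = 0.000445). *Ryr1*, the direct partner of the receptor, was at 337, 314 and 278 CPM in the control libraries and at 207, 201 and 221 CPM in the KO libraries, without overlap. *Hrc*, a calcium-binding protein of the sarcoplasmic reticulum lumen, and *Jsrp1*, a junctional protein that binds CaV1.1, had -0.64 and -0.51. *Rbfox1*, a splicing regulator, had -0.76 (adjusted p = 0.0422). The gene called higher was *Mbnl1*, another splicing regulator, with 0.19 (adjusted p = 0.0290). With limma on log2(TPM + 1) *Ryr3*, *Ryr1*, *Jsrp1*, *Rbfox1* and *Mbnl1* were not past the threshold (adjusted p = 0.224, 0.0889, 0.0570, 0.671 and 0.441). *Rbfox1* also lost its call when control replicate 1 (0.156) or 2 (0.127) or KO replicate 1 (0.111) or 3 (0.145) was dropped. *Mbnl1* lost it with exactTest (0.0825) and without control replicates 1 (0.0748), 2 (0.145) or 3 (0.0615) or KO replicates 2 (0.0860) or 3 (0.108).

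**Figure D4:**
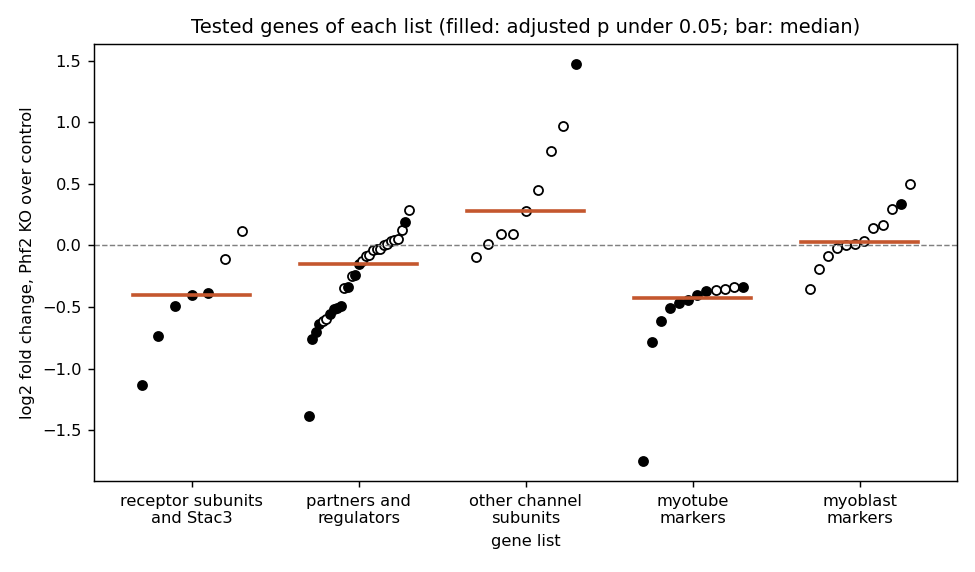
Log2 fold change of KO over control (vertical axis) of the tested genes of 5 lists; filled circles have an adjusted p under 0.05 and bars are medians. Of the receptor list 5 of 7 circles are filled below 0, of the myotube markers 9 of 12, and of the other channel subunits the single filled circle, *Cacna1b*, is above 0.

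The state of the cells was described with markers of differentiated and of undifferentiated or cycling C2C12 cells. Of the 12 myotube markers, 9 were called lower and none higher (0 also by exactTest, DESeq2 and at an unadjusted p under 0.05), with a median log2 fold change of -0.42. The shares over all genes tested were 3.26% lower and 3.22% higher. *Myh8*, the perinatal myosin heavy chain, *Ckm*, the muscle creatine kinase, and *Tnnc2*, the fast troponin C, changed most, with log2 fold changes of -1.75, -0.78 and -0.61. *Myh8* was not past the threshold with limma on TPM (adjusted p = 0.0691 with a pseudocount of 1 and 0.0672 with 0.1). The medians of this list and of the receptor list, -0.42 and -0.41, stood close to each other. Of the 12 markers of the undifferentiated or cycling state, 1 was called higher and none lower. The log2 fold changes of *Id1*, *Id2*, *Id3*, *Pax7* and *Myf5* were 0.29, 0.34, 0.50, 0.17 and 0.14. *Hes1* (-0.36) and *Cd34* (-0.19) went the other way. The cycling markers *Mki67*, *Top2a*, *Cdk1*, *Ccna2* and *Ccnb1* lay between -0.083 and 0.039. Among all genes, 11 alternative fits to all 6 libraries called between 88 and 772 lower. ExactTest called 0 of the 12 markers lower and DESeq2 called 1 lower. Their summed level was between 426 and 470 CPM in control libraries and between 490 and 504 CPM in KO libraries, and none of the 12 was at 0 in all libraries. *Id3*, an inhibitor of the same family as *Id2*, made up most of this difference, with means of 96.8 and 136.8 CPM. It was not called by the quasi-likelihood test (adjusted p = 0.0661), but it was by exactTest (5.52e-05) and DESeq2 (3.31e-07) and when control replicate 2 (0.0163) or 3 (0.00215) was dropped. Without it the sum was between 344 and 372 CPM in control libraries and between 342 and 369 CPM in KO libraries, and the groups overlapped. *Id2*, an inhibitor of myogenic bHLH factors, was the gene called higher, with a log2 fold change of 0.34 (adjusted p = 0.0419), and its call was lost in each of the 6 fits without a library (0.0601 to 0.167). The part of the fall of the myotube markers in that of the receptor genes was not tested.

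The genes whose pattern was most like that of *Cacna1s* were *Klhl40*, *Prkag3* and *Ckm*. Likeness was measured as the root mean square difference over the 6 libraries of log2(CPM + 1) centred on the control mean, among the 9618 genes that averaged 10 CPM or more. It was 0.035, 0.045 and 0.057 for these genes, against a median of 0.53 for all genes compared. *Klhl40* encodes a kelch protein of the sarcomere, *Prkag3* a muscle subunit of AMP-activated protein kinase. Their log2 fold changes were -0.76 and -0.79 (adjusted p = 0.000203 and 0.000590). Nearest to *Stac3* were *Mymx*, which encodes the fusion protein myomixer, *Ip6k3*, an inositol hexakisphosphate kinase, and *Itga7*, the integrin alpha-7 of muscle, with differences of 0.045, 0.048 and 0.050 against a median of 0.35. With 6 libraries in 2 groups, this measure mostly reflects the size of the group difference.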

How the data were processed

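The 6 libraries were of polyadenylated RNA, prepared with a directional kit. HISAT2 (alignment to mm10) and StringTie (gene counts) were run by the authors; versions and annotation are not given in the sources used here. Estimated counts were deposited in 1 matrix, written as whole numbers and not scaled by library size. In genes with 1 transcript and at least 500 counts, coverage times length per count had a median of 74.98 to 74.99 bases. For each library, TPM (a signal the authors scaled by transcript length and library) and coverage were deposited too. These tables list transcripts under reference genes and again under assembled loci, and reference rows were used.

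Counts were analysed with edgeR 4.0.16 in R 4.3.3 (filterByExpr with a minimum count of 10, TMM, robust quasi-likelihood test, Benjamini-Hochberg adjustment over 17310 genes, threshold 0.05), without a block. The standard error is the log2 fold change over the root of F, and 95% intervals use the fit's degrees of freedom. The procedure was run on simulated counts with a common dispersion for all genes, to check that changes of a set size were returned. Error rates and power for changes as small as those of the members were not judged from it. Alternatives were exactTest (the test named by the study), DESeq2 1.42.0, limma 3.58.1 on log2(TPM + 1) and log2(TPM + 0.1), other scalings and filters, counts divided by 4, the replicate number as a block, and leaving out each library. TPM of assembled loci covering at least 10% of a gene, and the marker sum without *Id3*, were added after seeing the data. Deviations from the group mean of same-numbered libraries correlated at 0.235, 0.258 and 0.168 over 10923 genes of at least 5 CPM. Those of differently numbered ones correlated at -0.241 to -0.00193. Since deviations are taken from the group mean, these values are not independent of the former. The pairing comes from this check and from the numbers in the labels, and the methods do not state it.

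The members and gene lists were chosen with earlier results of these data known. Named were the members, *Phf2*, of the other channel genes those past the threshold and the 3 with the highest TPM, of the partners the 6 with the largest change past the threshold and *Ryr1*, of each marker list up to 3 past the threshold, and the 3 genes nearest to *Cacna1s* and *Stac3*. *Cacng4*, *Cacng5*, *Cacng8* and the genes overlapping members were named for their position. *Mbnl1*, as the single partner called higher, and *Id3*, *Myh3* and *Cacna1a* were named after their values were seen. So were the other named myoblast markers except *Id2*, and the named partners without a call.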

Additional observations from a re-analysis of the deposited data

How the results depend on the processing

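*Phf2*, *Cacna1s* and *Stac3* kept direction and call under all 17 alternatives, and *Cacna2d1* stayed without a call. With limma on log2(TPM + 1) and log2(TPM + 0.1), the log2 fold change was -0.37 and -0.37 for *Cacnb1* (adjusted p = 0.114 and 0.111), -0.39 and -0.39 for *Cacng1* (0.0930 and 0.0873), -0.59 and -0.92 for *Cacng6* (0.325 and 0.320) and, reversed, -0.088 and -0.089 for *Cacnb3* (0.704 and 0.702). In these 2 fits the numbers called were 2 and 2 members lower, 5 and 5 partners lower, 0 and 0 partners higher, 5 and 5 myotube markers lower, 0 and 0 myoblast markers higher, 0 and 0 other channel genes higher, and of all genes 88 and 100 lower and 70 and 78 higher, against 565 and 557; the cause was not tested. ExactTest called 0 partners higher and 2 myoblast markers higher, and DESeq2 called 2 myoblast markers higher. DESeq2, upper-quartile scaling, no filter, the CPM filter and counts divided by 4 each called 1 myoblast marker lower. Their shares of all genes are not given singly, and the 11 alternatives on all libraries called 88 to 772 genes lower. For the uncalled *Cacna1a*, limma on log2(TPM + 1) gave a reversed log2 fold change of -0.027. Leaving out 1 library gave log2 fold changes of -0.49 to -0.36 for *Cacng1* and -1.31 to -0.97 for *Cacng6*, 3 to 5 members lower, 0 to 1 other channel genes higher, 0 to 1 partners higher, 0 to 1 myoblast markers lower and 0 to 1 higher, log2 fold changes of -0.0058 to 0.24 for *Cacnb2*, and of all genes 262 to 532 lower and 206 to 507 higher. With the replicate block, 5 members, 14 partners and 10 myotube markers were called lower, no named gene changed its call, and the exact paired test of the ratios gave p = 0.25 to 0.5, where 0.25 is the smallest possible. *Cacna1c* and the 12 untested channel genes are limited by depth, and the ratio of *Cacna1s* to *Cacna1c* was not run.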

Other observations

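The genes of the receptor were also read from the assembled loci of the deposited tables, an alternative chosen after seeing the data. These loci come from the same libraries and in part list the same transcripts, so they are not an independent measurement. *Cacng1* in control replicate 1, for example, was at 213.5 TPM in both. Each of the 7 tested genes had at least 1 assembled locus on its strand in every library, and *Cacna1c* had none. *Cacna1s* was at 29.4 ± 2.22 TPM (SD, n = 3) in control cells and 17.0 ± 1.38 TPM (SD, n = 3) in KO cells, a log2 ratio of the means of -0.79. *Stac3* was at 38.3 ± 2.61 and 28.3 ± 1.02 TPM, which is higher than in its reference row in both groups, with a log2 ratio of -0.43. *Cacnb3* was at 77.9 ± 3.43 and 77.4 ± 6.34 TPM, a log2 ratio of -0.01. The KO mean of *Cacnb3* was thus slightly lower on the assembled loci, by less than on the reference rows, whereas in the counts it was higher. *Cacnb1* was at 91.2 ± 19.1 and 74.8 ± 6.17 TPM, where control replicate 2, at 113 TPM, set the spread, since the other control libraries were at 82.3 and 78.2 TPM and KO replicate 1 was at 79.2 TPM. *Cacng6* was assembled into 2 loci in control replicate 3 and KO replicate 1 and into 1 locus in the other libraries. It was at 1.98, 3.20 and 2.94 TPM in the control libraries and at 2.05, 1.22 and 0.578 TPM in the KO libraries, with overlap.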
